A study of Mus musculus with 2 samples.

Results

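The genes of retinoid and carotene metabolism described here were Rbp2, Lrat, Bco1, Isx, Aldh1a1, Aldh1a2, Aldh1a3, Dhrs3 and Stra6. They were taken by name, as the probe sets that the array annotation assigns to exactly 1 of these symbols, and all 9 were found, with 12 probe sets among the 18194 genes named on the array. The samples were total RNA of intestinal biopsies from wild-type adult Mus musculus, 1 of the colon and 1 of the small intestine, and each was hybridised to 1 Affymetrix array of the type Mouse 430 2.0. The labels name no treatment and no strain, and they do not say from which stretch of either organ the biopsy came or how many animals gave RNA. With 1 array per tissue there is no replicate check, no test was run and no p-value is given, so that every difference below compares these 2 arrays.

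Mammals cannot make vitamin A and take it up in the gut as retinyl esters or as carotenes. In enterocytes, the absorptive cells of the epithelium, Bco1 cleaves beta-carotene to retinaldehyde, Rbp2 binds retinaldehyde and retinol in the cytosol, and Lrat esterifies retinol for export in chylomicrons. Retinaldehyde can instead be reduced by Dhrs3 or oxidised by the Aldh1a enzymes to retinoic acid, the ligand of the nuclear receptors RAR, and retinoic acid induces the homeobox factor Isx, which represses Bco1 and the carotenoid receptor Scarb1.

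The members that carried the difference between the tissues were Rbp2, Bco1 and Aldh1a3, all higher in the small intestine, and Aldh1a1, which was higher in the colon. Levels are deposited log2 expression values, and values below a background level of 5 were raised to 5 before a difference was taken. A gene was called higher at a difference of 3-fold or more, and where 1 tissue lay at background the fold is a lower bound, written as at least that fold. By this rule 3 of the 9 members were higher in the small intestine and 1 was higher in the colon, where of all 11016 genes above background on either array 5.71% were called higher in the small intestine and 5.49% higher in the colon. The median difference, small intestine minus colon, was 0.78 over the 9 members and -0.06 over those 11016 genes, on the log2 scale. The 9 members include Stra6, at background on both arrays, and over all 18194 genes, such genes included, the median was 0. Of the members, 7 lay above background on both arrays, Aldh1a2 on the small intestine array alone, and Stra6 on neither.

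**Figure D1:**
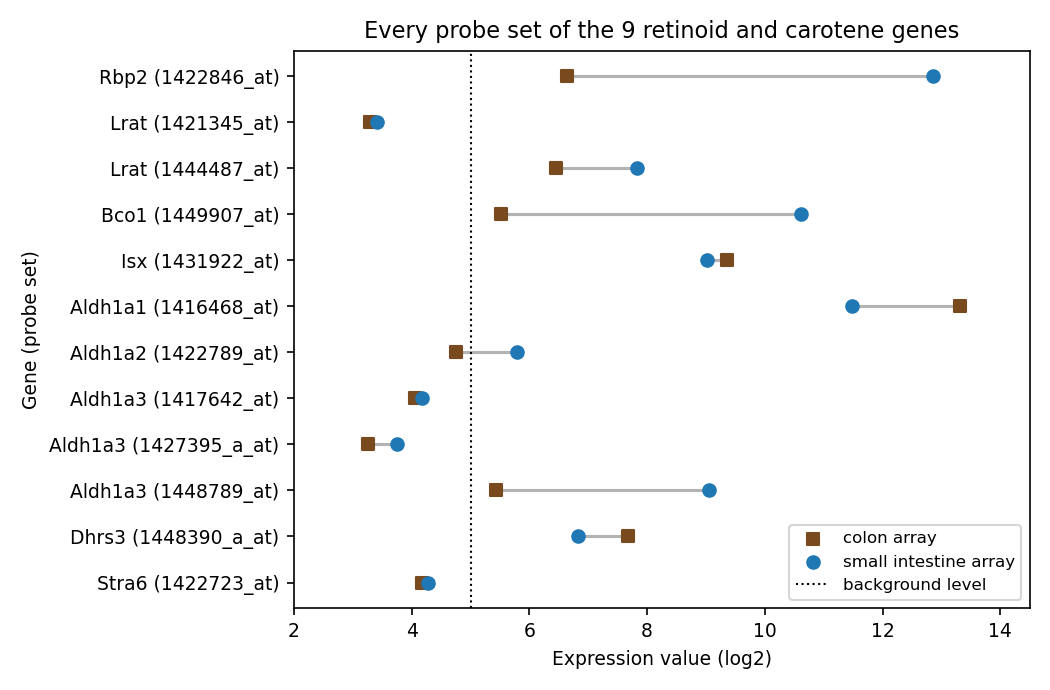
Log2 expression on the colon array (squares) and the small intestine array (circles) of all 12 probe sets of the 9 genes, and a dotted line at the background level of 5. The widest gaps are those of Rbp2 (6.64 to 12.86) and Bco1 (5.51 to 10.61), and 4 probe sets, of Lrat, Aldh1a3 and Stra6, lie left of the line on both arrays.

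Promoter sequence is shown for the pair with the largest differences, Rbp2 and Bco1, and for Isx and Aldh1a1, which did not share that direction. The sequences are those of RefSeq for assembly GRCm38.p6, where 8 of the 9 genes had 1 to 4 windows, 14 in all, each from 250 bases before to 50 bases after a transcript start. Only stretches of 30 bases before the start are printed, 5' to 3' on the strand of the gene, which for these 4 genes is the plus strand. Capitals mark a match to a nuclear receptor motif (AGGTCA or GGGTCA or AGTTCA or GGTTCA, on either strand) or to the TATA motif TATAAA. The first line holds a pair of receptor motifs on the opposite strand, spaced by 1 base, at -56 to -44 from the Bco1 start (chr8:117095800-117095829). The next lines hold the Bco1 TATA motif at -28 to -23 (chr8:117095825-117095854) and that of Rbp2 at -15 to -10 (chr9:98490507-98490536). The others hold single receptor motifs at -58 to -53 in Rbp2 (chr9:98490467-98490496), -46 to -41 in Isx (chr8:74873116-74873145) and -49 to -44 in Aldh1a1 (chr19:20601907-20601936). Rbp2 held a further receptor motif at -101 to -96 and a further TATA motif on the opposite strand at -38 to -33, which are not printed.
Bco1, receptor motif pair: cttgggaacTGACCTTTGACCTaacacaca
Bco1, TATA motif: acacacacactgTATAAAttacccagcagc
Rbp2, TATA motif: cctggtccactaagcTATAAAagcagtaac
Rbp2, receptor motif: gagctgggcttaTGACCTttgactctatta
Isx, receptor motif: aaagaggctcagGGTTCActtggccatcta
Aldh1a1, receptor motif: ccgatatgcaaaTGACCCttagtgcatgca

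At least 1 receptor motif lay in the windows of 5 of the 8 genes, namely Aldh1a1, Bco1, Isx, Rbp2 and Stra6, and of all 27025 genes with a window 46.9% hold one, so that the single motif is common. Counted by window, since some genes have several, it was in 5 of the 14 windows of these genes and in 43.7% of all 32851 windows. A pair spaced by 1 base was found in Bco1 alone of the 8 genes and in 0.263% of all genes. Pairs spaced by 2 or 5 bases, searched for in the same way, were found in 0 of the 8 genes and in 0.311% and 0.115% of all genes. TATAAA was found on either strand in Bco1 and Rbp2 alone of the 8 genes and in 15.7% of all genes, while the shorter ATAAA, which TATAAA contains, was found in 5 of the 8 genes and in 43.8% of all genes. The motifs are matches of letters in short windows. The arrays do not measure binding at these stretches.

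Among the 9 members, those of carotene cleavage and retinol binding differed most. Rbp2, the small cytosolic protein that carries retinol and retinaldehyde in enterocytes, had a level of 6.64 on the colon array and 12.86 on the small intestine array (probe set 1422846_at), a difference of 6.22 or 74.5-fold. Bco1, the oxygenase that splits beta-carotene, had 5.51 on the colon array and 10.61 on the small intestine array (1449907_at), a difference of 5.09 or 34.2-fold. Each was measured by a single probe set, and both stood above background in both tissues, so these folds are not bounds, although the colon value of Bco1 lay only just above 5. When the 9814 genes above background on both arrays were ranked by their difference in favour of the small intestine, Rbp2 was number 15 and Bco1 number 24. Genes at background on 1 array were not ranked, even where their difference was larger, as for Apoa1 (at least 10.87) and Rdh7 (at least 6.65). The ranking in favour of the colon, used below, likewise leaves out the exocrine pancreas markers.

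**Figure D2:**
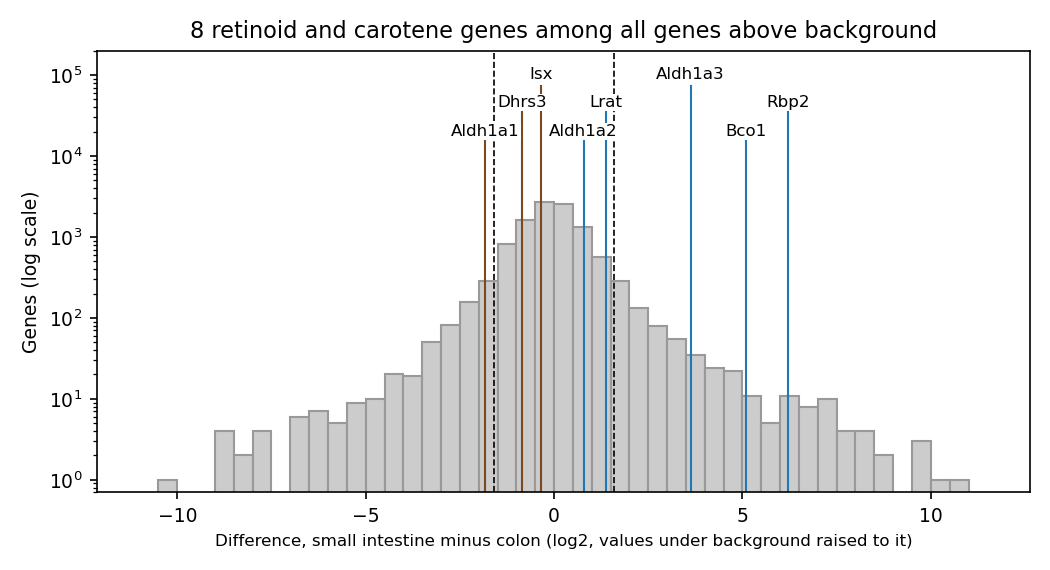
Histogram of the log2 difference, small intestine minus colon, of the 11016 genes past background on 1 array or both, with the number of genes on a log scale and vertical lines at the 8 members above background. Dashed lines mark 3-fold. Differences of genes at background on 1 array are lower bounds. Rbp2, Bco1 and Aldh1a3 stand beyond the right dashed line, and Aldh1a1 just beyond the left one.

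Isx, the homeobox repressor of Bco1, did not reach 3-fold. Its level was 9.36 on the colon array and 9.01 on the small intestine array (1431922_at), a difference of -0.34. Scarb1, the scavenger receptor through which carotenoids enter the cell, had 3 probe sets, with differences of -0.69, 0.15 and 0.05 and none past 3-fold. Isx and Scarb1, which it is known to repress, differed by less than 3-fold, and Bco1, its other known target, was 34.2-fold higher in the small intestine. The activity of Isx was not measured, and its part in the Bco1 difference was not tested.

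Lrat, which esterifies retinol, was 2.62-fold higher in the small intestine by its brighter probe set (1444487_at), with 6.45 on the colon array and 7.83 on the small intestine array, and so did not reach 3-fold. Its other probe set (1421345_at) lay at background on both arrays, with 3.29 and 3.41. Dhrs3, the reductase that turns retinaldehyde back to retinol, had 7.68 on the colon array and 6.82 on the small intestine array (1448390_a_at), a difference of -0.85 or 1.81-fold in favour of the colon. Dhrs3 thus also stayed under 3-fold. Stra6, the membrane receptor that takes up retinol from plasma retinol-binding protein, had 4.17 on the colon array and 4.28 on the small intestine array (1422723_at), below background on both arrays, and no fold is given.

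The 3 retinaldehyde dehydrogenases of the Aldh1a family, each of which makes retinoic acid, went in different directions. Aldh1a1 had 13.31 on the colon array and 11.49 on the small intestine array (1416468_at), a difference of -1.82 or 3.54-fold in favour of the colon, and was number 332 when the same 9814 genes were ranked in favour of the colon. Both levels were far above background, and the difference exceeds the 3-fold rule by a small margin. Aldh1a7, a close paralogue of Aldh1a1, had 9.46 on the colon array and 10.07 on the small intestine array, a difference of 0.62 in the other direction, and whether the probes of either gene also bind the transcript of the other was not tested. Aldh1a2 had 4.75 in the colon, under background, and 5.78 in the small intestine (1422789_at), which is at least 1.72-fold higher and under 3-fold.

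Aldh1a3 was higher in the small intestine by 1 of its 3 probe sets. With 1448789_at it had 5.43 on the colon array and 9.05 on the small intestine array, a difference of 3.62 or 12.3-fold, number 73 of the 9814 genes in favour of the small intestine. The other 2 probe sets lay at background on both arrays, at 4.06 and 4.17 for 1417642_at and at 3.26 and 3.74 for 1427395_a_at, in the order colon and small intestine. The call of Aldh1a3 thus rests on a single probe set, and with the median over its 3 probe sets the difference was 0. The array annotation lists the same source sequence for 1417642_at and 1448789_at, although their values differ. A looser kind of split, with at least 1 probe set at background on both arrays, was common. It was found in 57.6% of 314 genes called higher in the small intestine with 2 or more probe sets. Of the 6854 genes above background with 2 or more probe sets, 68.2% had it. How many had all but 1 probe set at background was not counted.

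Beyond the 9 members, 57 of 66 listed genes of retinoid handling and of enterocyte transcription were analysed here. Of these 57, 41 lay above background on at least 1 array. Of the 41, 13 were called higher in the small intestine against 3 called higher in the colon. The other 16 lay at background on both arrays and could not be called. Among all 11016 genes above background on either array, 5.71% were called for the small intestine against 5.49% for the colon. Over all 57 the median difference was 0.06, and 0.39 when low values were not raised to background. The list was drawn up with results of these arrays already known.

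**Figure D3:**
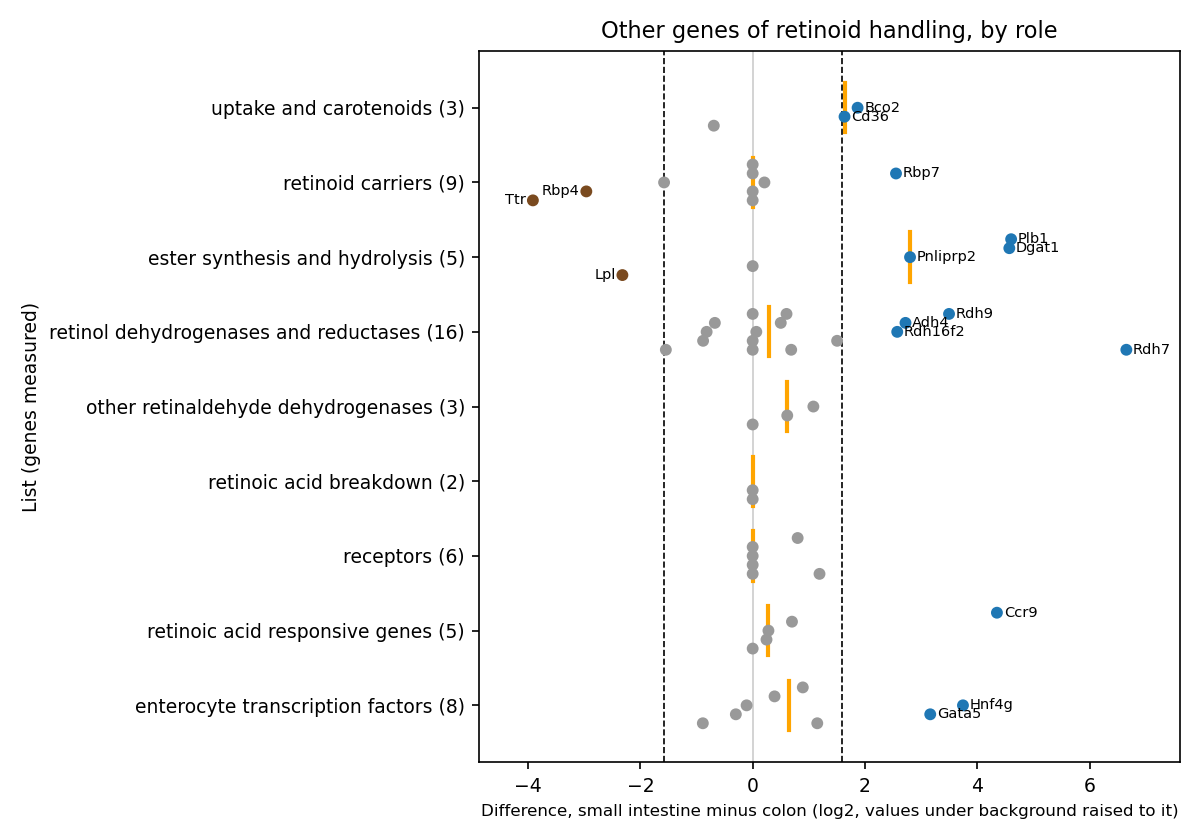
Log2 difference, small intestine minus colon, of each of 57 other genes by role, with values under background raised to it, so that genes at background on both arrays stand at 0. Points are genes (vertical offset only separates them), blue past 3-fold in the small intestine, brown past it in the colon and grey otherwise, orange bars are medians and dashed lines mark 3-fold. Rdh7 stands farthest right at 6.65 and Ttr farthest left at -3.91.

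Most measured genes of uptake and of ester synthesis or hydrolysis were called higher in the small intestine. Of the 3 genes of uptake and carotenoid cleavage, Bco2, the mitochondrial oxygenase that cleaves carotenoids off centre, was 3.65-fold higher (7.34 in the colon, 9.21 in the small intestine) and the lipid scavenger receptor Cd36 3.11-fold (7.35 and 8.99). Of 5 ester genes, 3 were called higher in the small intestine against 1 in the colon. Dgat1, an acyltransferase that makes triglycerides and can also esterify retinol, was 23.7-fold higher (7.81 and 12.38), though that probe set is marked as shared with other transcripts and its other probe set gave at least 2.08-fold. The brush border phospholipase Plb1, which hydrolyses retinyl esters, was at least 24.3-fold higher (3.0 and 9.60) by 1 of 4 probe sets, the other 3 being at background throughout. Pnliprp2, a lipase related to that of the pancreas, was 6.97-fold higher in the small intestine (8.98 and 11.78). Lpl, the lipase that unloads chylomicrons at the vessel wall, was 4.99-fold higher in the colon, with 10.91 against 8.59.

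Of 16 dehydrogenases and reductases of retinol and retinaldehyde, 4 were called higher in the small intestine against 0 in the colon, and their median difference was 0.28. Rdh7 had 3.36 on the colon array and 11.65 on the small intestine array and was at least 100.5-fold higher there. Rdh9, a close relative, was 11.3-fold higher (8.77 and 12.27), Rdh16f2 at least 5.95-fold (3.10 and 7.57), a call lost at a background of 6, and the alcohol dehydrogenase Adh4 at least 6.59-fold (2.37 and 7.72). Since these Rdh genes resemble each other closely, how the signal divides among them is uncertain. Adh1, the alcohol dehydrogenase with 13.30 on the colon array and 12.42 on the small intestine array, and Rdh10, with 8.73 and 9.41, did not reach 3-fold. Rdh10 makes most of the retinaldehyde of the embryo, and its other probe set had a difference of -1.11, against 0.69 by the brighter one. Rdh16 had a difference of -1.55, just under 3-fold in favour of the colon.

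Carriers of retinoids in plasma were higher in the colon. Rbp4, the plasma retinol-binding protein, had 8.66 on the colon array and 5.70 on the small intestine array (7.79-fold), and Ttr, transthyretin, which holds Rbp4 in the circulation, had 12.37 and 8.46 (15.1-fold). All 4 probe sets of Ttr were higher in the colon, with differences from -4.12 to -1.14, though each is marked as one that can report more than 1 transcript. Stra6l, a receptor for Rbp4 related to Stra6, had 7.60 on the colon array and 6.03 on the small intestine array, a difference of -1.58 that fell just short of 3-fold and passed it, as the only further gene of the list in favour of the colon, when the arrays were centred on hybridization spike-in controls. The cytosolic carrier Rbp7 went the other way, 5.86-fold higher in the small intestine (6.79 and 9.34). Crabp1 and Crabp2, which bind retinoic acid in the cytosol, lay at background on both arrays.

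No receptor and no enzyme of retinoic acid breakdown was called higher in either tissue. Rara, Rarb, Rarg and Rxrg lay at background on both arrays, and Rxra (7.80 in the colon, 8.98 in the small intestine) and Rxrb (8.18 and 8.98) differed by 1.19 and 0.80, under 3-fold. Both measured enzymes of retinoic acid breakdown, Cyp26a1 and Cyp26b1, lay at background on both arrays, Cyp26b1 at 4.96 and 4.97. Of 5 retinoic acid responsive genes 1 was called, Ccr9, the gut homing receptor of lymphocytes, whose small intestine value was at least 20.4-fold higher by 1 of its 5 probe sets (4.82 and 9.35). That probe set is marked as one that can report more than 1 transcript. Another Ccr9 probe set was at least 1.69-fold higher (3.54 and 5.75), and the others lay at background on both arrays. Tgm2, a transglutaminase induced by retinoic acid, differed by 0.70 by its brightest probe set. Its 6 probe sets ran from 0, at background on both arrays, to 1.41, and none reached 3-fold. Among 8 transcription factors of the enterocyte, Hnf4g (at least 13.4-fold, 4.82 and 8.74) and Gata5 (at least 8.94-fold, 3.39 and 8.16) were higher in the small intestine. Other probe sets of Hnf4g gave at least 6.22-fold and at least 1.65-fold. Hnf4a and Ppara were not called by their brightest probe sets (-0.11 and -0.30). Another probe set of each was past 3-fold in the small intestine (1.85 and 1.74), and their remaining probe sets were not. Cdx2, an activator of Isx, differed by 0.39, Cdx1 by -0.89, and the difference of Gata4, at least 2.22-fold in favour of the small intestine, stayed under 3-fold.

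In such bulk samples, fewer cells of a type and less RNA per cell cannot be told apart. Of 7 pan-epithelial genes 1, villin (Vil1, 1.60), reached 3-fold, and the median difference of that list was 0.22. Of 7 enterocyte genes 5 were called higher in the small intestine, in the same direction as Rbp2 and Bco1, namely Lct, Anpep, Alpi, Fabp1 and Apoa1. The others stayed under 3-fold. Fabp2 had 14.26 on the colon array and 15.42 on the small intestine array, a difference of 1.16. Krt20 had 13.32 and 14.23, a difference of 0.91. Levels of all 7 ran from 12.18 to 15.87 in the small intestine and from 2.70 to 14.26 in the colon. The part of the number of enterocytes in the difference of Rbp2 and Bco1 was not tested. Beside Aldh1a1, higher in the colon, 5 of 8 smooth muscle genes were called higher in the colon too, with -1.82 as the median difference. Of 9 fibroblast genes, 2 were called higher in the colon against 1 in the small intestine. Beside Aldh1a2, which dendritic cells and mesothelium can express, 4 of 4 mesothelial markers were at background throughout, and of 10 markers of dendritic cells and macrophages 1, Itgae, which T cells of the epithelium also carry, was higher in the small intestine, while 4 lay at background on both.

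Genes of the exocrine pancreas stood apart on the colon array. All 8 measured markers were higher in the colon, from 9.76 to 13.95 there and from 2.30 to 4.56 on the other array, and their summed level, as log2 of the sum, was 15.68 against 6.53. Their part in the members' values and in those of Rbp4, Ttr, Lpl and Pnliprp2 was not tested. For Rbp4, Ttr and Lpl further marker lists were added after their values had been seen. Of 6 pancreatic islet markers 5 lay at background on both arrays, insulin (Ins2) among them, and the other, Iapp, had 7.77 on the colon array and 7.95 on the small intestine array. Of 8 hepatocyte markers 5, albumin (Alb) among them, were at background throughout, and 1 other, Serpina1b, was higher in the small intestine. Of 6 adipocyte markers, with a median difference of -0.29, none was called higher in the colon and 1, Cidec, favoured the small intestine by at least 9.35-fold. Fabp4 (-0.77), Adipoq (-0.55), Retn (-0.50) and Plin4 (-0.07) favoured the colon by less than 3-fold.

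**Figure D4:**
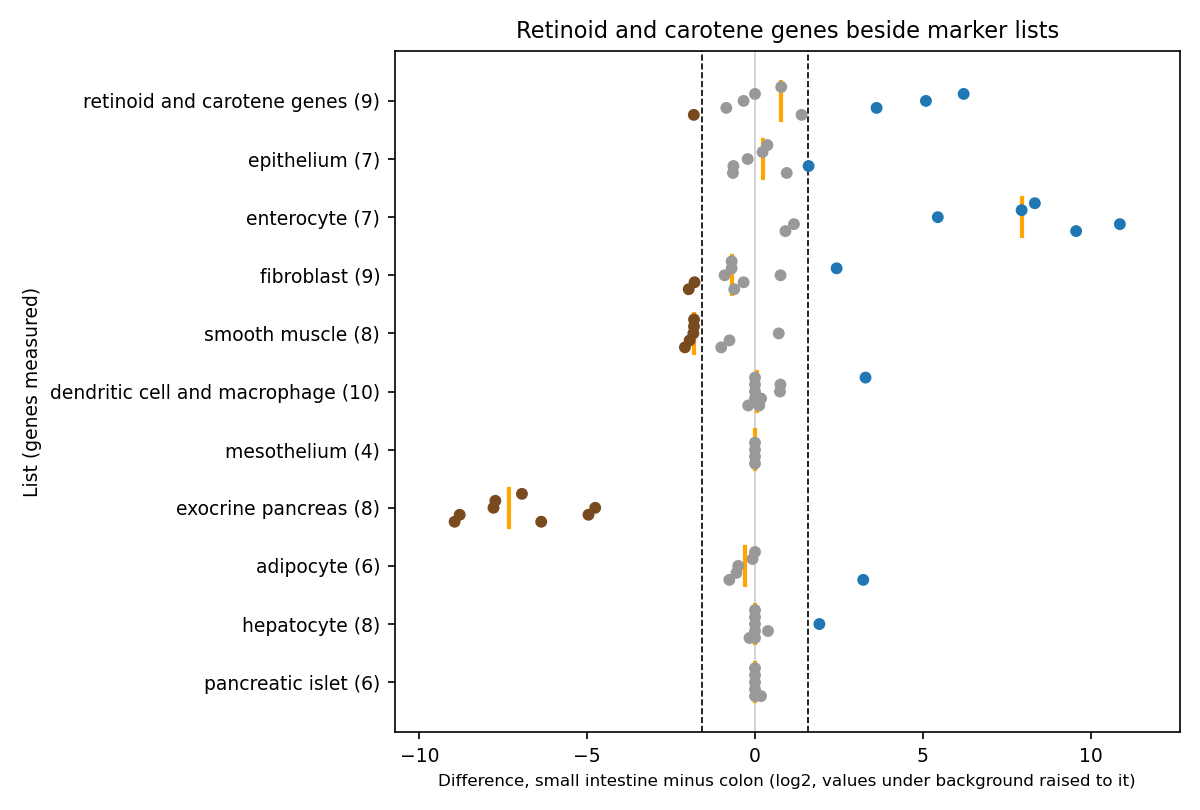
Log2 difference, small intestine minus colon, of the 9 retinoid and carotene genes and of marker lists of cell types and tissues, with values under background raised to it. Points are genes, coloured blue or brown past 3-fold in the small intestine or the colon, orange bars are medians and dashed lines mark 3-fold. The median runs from 7.95 for the enterocyte list to -7.34 for exocrine pancreas and is 0.78 for the retinoid and carotene genes.

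The spike-in transcripts added before labelling differed between the arrays by position. The 8 probe sets at the 3' ends of these poly-A controls differed by -0.04 to 0.61, with a median of 0.26, whereas the 8 at the 5' ends were all lower on the small intestine array, by -2.73 to -0.68, with a median of -2.30. The 5' probe set of Gapdh likewise differed by -1.27 and its 3' probe set by 0.02. For beta-actin the 5' probe set differed by 0.0037 and the 3' probe set by 0.34. The positions of the members' probe sets are not given in the files, and the part of this in the value of Aldh1a1, or in those of the other genes higher in the colon, was not tested.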

How the data were processed

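Per the labels, RNA was extracted with a Qiagen RNeasy kit, checked on a Bioanalyzer, labelled with biotin and hybridised to 2 arrays. The authors deposited normalized log2 expression values per probe set. The submitters' processing notes name GCRMA, the methods of the study RMA for arrays of another deposit, and no version is given. With GCRMA, folds against a dim tissue can come out wider than with other methods. The sources used here do not give how many animals entered each array, and precision is limited by the small number of arrays.

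Probe sets were named through the platform annotation: 34958 of 45101 had 1 gene, 932 several (not used), and 34754 matched RefSeq (GRCm38.p6) by Entrez identifier. The brightest probe set by the mean of both arrays stood for a gene. Values below 5 were raised to 5, since 78 olfactory and vomeronasal receptor probe sets reached at most 4.78, and 3-fold counted as higher, after the fold of the study's methods. No test was run. The members, gene lists, motifs and rules were chosen with earlier results of these data known. Named genes were all members, all other listed genes past 3-fold and up to 4 more per role. A few beyond these were named after their values were seen. Alternatives were other backgrounds and folds, other scalings and other choices of probe set. The procedure was run on simulated data with changes planted only in genes far above background. The simulated noise was smaller than the spread between probe sets of 1 gene. Calls near background were thus not checked by it. Analyses used Python 3.11.15, numpy 2.4.6, pandas 2.3.3 and matplotlib 3.10.9.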

Additional observations from a re-analysis of the deposited data

How the results depend on the processing

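Of the 10 alternatives, those that changed only the fold leave the differences as they are and were not counted here. Under the others, 67 of 71 recomputed member differences moved by less than 0.54, and no called difference changed sign. That value is the pooled standard deviation of the differences between probe sets of 1 gene on these arrays, which holds no spread between animals. Many of the 71 could not move. For the 7 members with 1 probe set, no other choice of probe set exists. Other backgrounds change only values below 6. The difference of Aldh1a3 became 0 with the median over probe sets and 3.05 at a background of 6, that of Lrat 0.69 with the median over probe sets, and that of Aldh1a2 0 at a background of 6. Rbp2 ranged from 6.20 to 6.27, Bco1 from 4.61 to 5.15 and Aldh1a1 from -1.84 to -1.78. At a fold of 5 the number of members higher in the colon was 0, without Aldh1a1, and at a fold of 2 the listed genes higher in the colon were 5, with Rdh16 and Stra6l, and those higher in the small intestine 17, with Aldh1b1, Dhrs4, Gata4 and Rxra. The members higher in the small intestine numbered 2 with the median over probe sets, without Aldh1a3, and 4 at a fold of 2, with Lrat. Of the listed genes higher in the small intestine, Rdh16f2 was lost at a background of 6, Gata4 was gained at one of 4, and Plb1 and Ccr9 were lost with the median over probe sets. Without probe sets marked _x, _s or _a, Dgat1 and Ccr9 were lost there and Hnf4a was gained, while Dhrs3, Rdh9 and Ttr kept no probe set and have no value. No paired analysis was possible because each tissue has 1 array. A level at background limits Stra6, and the colon values of Bco1 and Aldh1a3 lie close to it.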
